A study of Mus musculus with 8 samples.

Results

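The genes of glycolysis and of glycogen metabolism were described in satellite cells (SCs) of control and exercise mice; SCs are the cells that repair and renew muscle. They were 33 genes taken by symbol from the 52535 symbols of the expression table, 22 of glycolysis and 11 of glycogen metabolism. RNA sequencing had been done on 4 control and 4 exercise libraries, each made from about 800 SCs. According to the methods, all mice were male C57B/6J animals aged 10 weeks, control mice were sedentary, and running for exercise mice was on a treadmill (12 m/min, 30 min/day, 4 days/week, 4 weeks). The SCs were sorted by FACS from tibialis anterior digested with collagenase and dispase, after staining for CD45, CD11b, CD31 and Sca1, which mark blood, endothelial and other cells, and for the SC surface proteins CD34 and integrin α7. No treatment beyond running was labelled, and the labels do not say whether the libraries of a group came from separate mice. A legend of the study counts mice as the replicates of this sequencing, but the independence of some libraries is in doubt as described next, so p-values measure the spread between these libraries, which may be technical in part.

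Glycolysis breaks glucose down to pyruvate in the cytosol and yields ATP without oxygen, and lactate dehydrogenase then turns pyruvate into lactate. Glycogen is the branched glucose store of muscle, which glycogen phosphorylase opens when contraction needs fuel. Several steps have isozymes encoded by separate genes, and mature fast muscle fibres use a set of their own, such as Pgam2, Eno3, Pfkm and Pygm, while Pgam1, Eno1, Pfkl, Pfkp and Pygb are the forms of many other tissues. Quiescent SCs are known for a low glycolytic rate that increases when they are activated.

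Libraries were not alike in depth or content. Control libraries held 2339966 to 3013354 reads on genes and exercise libraries 1011737 to 1200221, and transcripts of the mitochondrial genome took 2.09% to 15.3% of control reads, 7.85% in exercise 1, 7.56% in exercise 2, 50.2% in exercise 3 and 68.7% in exercise 4. FPKM values (reads per kilobase of gene, scaled by a size factor per library) were whole multiples of what 1 read was worth, so the reads behind each value were recovered. That factor did not follow the read total of the library. In exercise 4 a single read on a gene of 1 kb was worth 3.47 FPKM, against 0.251 to 0.902 in the other libraries. Independence of the libraries is in doubt. Comparing reads over genes, the chi-square divided by its degrees of freedom was 3.82 between exercise 1 and 2, more than sampling noise but far below the 79.0 to 507 of the other pairs within a group. Control 4 held the transcripts seen in control 1 but not control 3 at 0.280 of their share there (median), and those seen in control 3 but not control 1 at 0.715. For exercise 3 the corresponding values were 0.299 (relative to exercise 1) and 0.679 (relative to exercise 4). Counts are therefore also given after averaging exercise 1 and 2, and after leaving out control 4 and exercise 3 as well.

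The labelled cell type was checked against its markers. Of 12 SC markers, 8 had a read in any control and 2, Cd34 and Sdc4, in any exercise library, and Pax7, Itga7, Calcr and Cdh15 had none in all 8. Of the 4 SC markers that could be tested, 1, Chodl, was called lower, with 16.5, 5.13, 3.29 and 5.65 FPKM in control 1 to 4 and no read in exercise (limma adjusted p = 0.00881). Cd34 and Sdc4 had larger values in exercise without passing the test, Cd34 with at most 1.48 FPKM in control and 1.90 to 9.63 FPKM in exercise (limma adjusted p = 0.0670) and Sdc4 with 3.25 to 33.8 and 30.0 to 76.1 FPKM (limma adjusted p = 0.101). With quantile normalization Chodl was no longer called (limma adjusted p = 0.0681), and Cd34 (0.0198) and Sdc4 (0.0473) were called higher. Of 18 myofibre markers, 17 had reads (Tnnc2 had none), and together they took 10.2% to 20.9% of control reads and 5.03% to 6.89% of exercise reads. Their summed level was 40784 to 93541 FPKM in control and 16599 to 107548 FPKM in exercise. Markers of other cell types were read as well. Of 8 endothelial markers only Kdr had reads, with 0, 2994, 1669 and 1076 FPKM in control 1 to 4 and at most 0.530 FPKM in exercise (called lower). All 8 fibro-adipogenic progenitor markers had reads, at a summed 1418 to 2238 FPKM in control and 1486 to 2219.6 FPKM in exercise, with Lum called higher and Mfap5 lower. The 6 tendon markers summed to 487 to 1019 FPKM in control and 243 to 1405 FPKM in exercise, with Scx called higher, and 3 of 8 smooth muscle and pericyte markers had reads, at 2.88 to 46.1 and 5.72 to 89.3 FPKM, with Myh11 called higher. Of 6 erythroid markers 4 had reads (none called), and the 8 leukocyte markers had none. Their part in the results below was not tested. In bulk libraries, fewer cells of a type and less RNA per cell cannot be told apart.

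Of the 21 glycolysis and glycogen genes that could be tested, 15 had a negative log2 fold change in exercise, 71.4%, close to the 68.3% of all genes tested. Among the 33 genes, 5 were without a read in all 8 libraries (Pfkl, Aldoc, Ldhb, Pgm1 and Pygb), 7 had reads but a mean under 1 FPKM (Hk1, Pfkp, Bpgm, Eno1, Pfkfb1, Phkb and Phkg1), and the remaining 21 were tested with limma on log2(FPKM + 1). With Benjamini-Hochberg adjustment over all 4328 genes tested, 9 of the 21 had an adjusted p under 0.05 and lower levels in exercise, 42.9%, where 26.8% of all genes tested were called lower (35.6% in either direction). These were Gpi1, Pfkm, Aldoa, Gapdh, Pgam2 and Pfkfb3 of glycolysis and Pgm2, Pygm and Ugp2 of glycogen metabolism. None was called higher, against 8.78% of all genes. The filter used the mean over all 8 libraries, so a gene could pass it through 1 group alone. Of the 4328 genes tested, 1314 had no read in exercise and 203 none in control. Among the 21 genes these were 2 (Pfkfb3 and Pgam1) and 1 (Fbp2). Without adjustment, 13 of the 21 had a p under 0.05 (61.9%, against 49.6% of all genes), of which 1, Hk2, was higher. With limma's voom on the recovered reads, 8 of the 21 were called lower, against 18.3% of all genes, and 1, Hk2, higher, against 10.4%. Those 8 were the 9 named genes without Gapdh. The median log2 fold change was -1.77 over the 21 genes and -1.42 over all genes tested, and with groups that had no read set to 3 reads per library it was -1.76 and -0.78. The groups did not overlap, with exercise lower, in 7 genes (Gpi1, Aldoa, Pgam2, Ldha, Pfkfb3, Pygm and Ugp2), as in 24.0% of all genes, and with exercise higher in Hk2, as in 7.62% of all genes.

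The count rested on the libraries in the fit. With exercise 1 and 2 averaged, Gpi1 and Ugp2 were the 2 genes called, both lower, against 9.51% of all genes lower and 4.05% higher. With control 4 and exercise 3 also left out, no gene in the table was called by limma. An unadjusted p under 0.05 was found for 5 of the 21 genes and for 469 of the 4499 genes tested in that fit. Leaving out 1 library at a time gave 2 to 10 genes lower, and the share of all genes called lower moved in the same fits from 8.14% to 37.6%. The count was 2 without exercise 1 (9.17% of all genes) and without exercise 2 (9.58%), 3 without control 4 (9.50%), 4 without exercise 3 (8.14%), and 5 without control 2 (18.1%) and without control 3 (14.2%). It was 7 without control 1 (37.6%) and 10 without exercise 4 (19.5%).

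**Figure D1:**
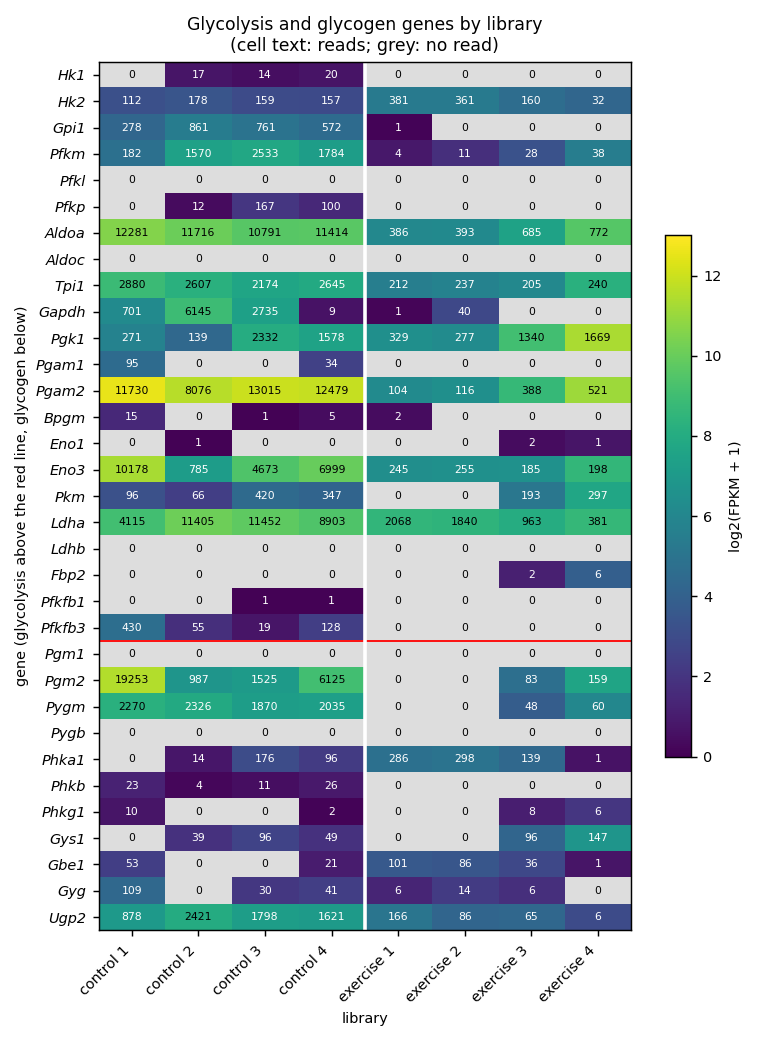
Level of the 33 genes in each library as log2(FPKM + 1), by colour, with the number of reads printed in each cell and grey for no read; glycolysis genes stand above the red line and glycogen genes below it. The 5 genes without reads are grey throughout, and Gpi1, Pfkfb3, Hk1, Pfkp, Pgam1 and Phkb are grey in nearly all exercise libraries.

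How far apart the groups stood depended on the scale. As a share of all reads on genes, the 22 glycolysis genes took 1.85%, 1.64%, 1.70% and 1.69% in control 1 to 4 and 0.353%, 0.349%, 0.346% and 0.360% in exercise 1 to 4. All 4 exercise libraries lay far below all controls and close together. On the FPKM scale the sum was 11405, 6554, 7254 and 6859 in control and 771, 775, 1626 and 6879 in exercise, so exercise 4 lay among the controls. Of the reads outside the mitochondrial genome, the genes took 1.84% to 2.01% in control, 0.383% and 0.377% in exercise 1 and 2, 0.695% in exercise 3 and 1.15% in exercise 4. The part of the mitochondrial reads in the result was not tested.

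The 11 glycogen genes took 0.966%, 0.217%, 0.183% and 0.359% of all reads in control 1 to 4 and 0.0528%, 0.0478%, 0.0401% and 0.0329% in exercise 1 to 4. Control 1 was far above the rest, and Pgm2 alone had 19253 of its 22596 glycogen reads. In FPKM the sum was 3332, 608, 449 and 830.3 in control and 72.5, 61.2, 106 and 371 in exercise, without overlap.

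**Figure D2:**
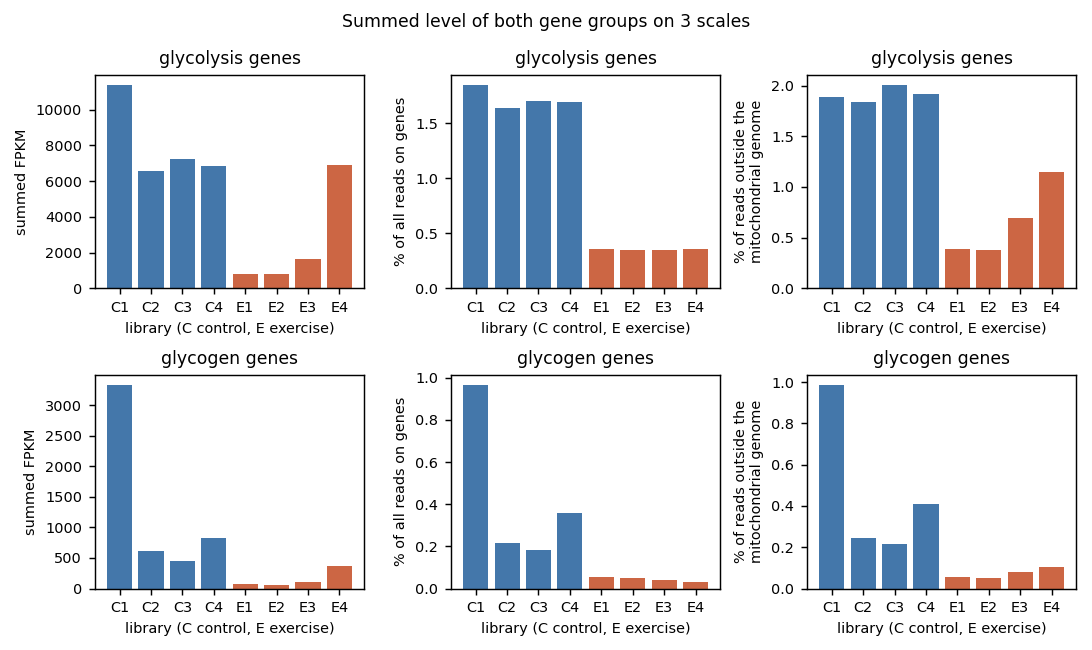
Summed level of the 22 glycolysis genes (upper row) and 11 glycogen genes (lower row) in each library, as summed FPKM, as percent of all reads on genes and as percent of reads outside the mitochondrial genome; blue bars are control and orange bars exercise libraries, each bar 1 library. Exercise 4 reaches 6879 FPKM of glycolysis genes, within the control range, but 0.360% of all reads, like the other exercise libraries.

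By share of all reads, 10 of the 21 tested genes had exercise libraries below all controls (25.9% of all genes) and none had them above (5.06% of all genes). Pfkm, Tpi1, Eno3 and Pgm2 joined this count, and Ldha and Hk2 overlapped on that scale. Scaled to reads on all genes, an alternative chosen after seeing the data, 11 genes were called lower by limma, the same 9 with Eno3 and Tpi1, against 32.0% of all genes, and none higher, against 6.98%.

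Glucose enters glycolysis when hexokinase phosphorylates it. Hk2, the inducible muscle hexokinase, had 8.18, 9.74, 6.82 and 6.60 FPKM in control 1 to 4 and 38.2, 37.9, 24.2 and 18.6 FPKM in exercise 1 to 4. Every exercise value was above every control value, by 3.79-fold in the means (7.84 ± 1.45 and 29.7 ± 9.88, SD, n = 4). The log2 fold change was 1.75 (standard error 0.62) with a limma adjusted p of 0.0517, just above the threshold. As a share of all reads, exercise 4 had 27.7 RPM of Hk2 (reads on the gene over all reads on genes, scaled to a common total), below the 47.9 to 66.8 of the controls, while exercise 1 had 360.0. Hk1, the hexokinase of most tissues, had 17, 14 and 20 reads in control 2, 3 and 4 and none elsewhere. The level of Hk2 was at least 91.8% of the summed hexokinase level in every library.

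Gpi1, glucose-6-phosphate isomerase of the next step (chromosome 7 of mm10, 34201330 to 34230336), had the smallest adjusted p of the 33 genes. It had 18.8, 43.6, 30.2 and 22.2 FPKM in control 1 to 4, from 278 to 861 reads. Exercise 1 had a single read and exercise 2, 3 and 4 had none, where a count of 0 in exercise 4 allows 1.61 FPKM by counting error only. Limma gave a log2 fold change of -4.79 (standard error 0.60, adjusted p = 0.000898), and the call held in 8 of 8 fits that left out 1 library. With quantile normalization it was -3.76 (limma adjusted p = 0.00567).

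Phosphofructokinase commits sugar to glycolysis. Pfkm, the muscle form (chromosome 15, 98092589 to 98132447), had 26.8, 173, 219 and 151 FPKM in control 1 to 4 and 0.809, 2.33, 8.54 and 44.6 FPKM in exercise 1 to 4. Exercise 4, with 38 reads, exceeded control 1, so the groups overlapped. In limma the log2 change was -3.98 with a standard error of 1.12 (adjusted p = 0.0284), which held without control 1 or exercise 4, in 2 of 8 fits without 1 library. Pfkp, the platelet form, had 12, 167 and 100 reads in control 2, 3 and 4 and none in control 1 or exercise. It overlaps Pitrm1 on the opposite strand, which had 698 reads in all libraries, and the use of strand in counting is not given in the sources used here. Pfkm made up at least 98.6% of the summed phosphofructokinase level in every library, and Pfkl had no read.

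Enzymes that set fructose-2,6-bisphosphate, the activator of phosphofructokinase, were also measured. Pfkfb3 (chromosome 2, 11471433 to 11554077), which makes it, had 24.8, 2.38, 0.644 and 4.25 FPKM in control 1 to 4 and no read in any exercise library. Limma put its log2 change at -2.39 (standard error 0.80, adjusted p of 0.0441), a size that moves with the pseudocount. The call held without control 1 or control 3, in 2 of 8 fits without 1 library. With each exercise library set to 3 reads, the exercise mean was at least 14.4-fold lower, and at least 4.36-fold without control 1, which held 430 of the reads. A count of 0 allows 1.38 FPKM in exercise 4, above control 3. Pfkfb1 had 1 read each in control 3 and 4. Fbp2, the muscle fructose-bisphosphatase that runs the phosphofructokinase step in reverse, had no read in control, 2 reads in exercise 3 and 6 in exercise 4 (limma adjusted p = 0.209).

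Aldolase, triosephosphate isomerase and Gapdh carry the 6-carbon sugar to 1,3-bisphosphoglycerate. Aldoa (chromosome 7, 126795234 to 126808905) had 1529, 1093, 789.7 and 818 FPKM in control 1 to 4 and 65.9, 70.4, 176 and 765 FPKM in exercise 1 to 4. Exercise 4 lay just under the lowest control, and the means were 1057 ± 343 and 269 ± 334 FPKM (SD, n = 4). The fit put the change at -2.68 on the log2 scale (standard error 0.82, limma adjusted p of 0.0347), and of 8 fits without 1 library the call held in 1, without exercise 4. As a share of reads the gap was wider, with 3581 to 5248 RPM in control and 365 to 668 in exercise. Aldoc had no read.

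Tpi1 had 202 to 456 FPKM in control, 46.1, 54.0 and 67.2 FPKM in exercise 1, 2 and 3 and 303 FPKM in exercise 4. The log2 fold change of -1.76 had a limma adjusted p of 0.0862. In RPM, the groups did not overlap, with 721 to 1231 in control and 171 to 234 in exercise.

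Gapdh (chromosome 6, 125161715 to 125166467), a gene used by every cell and a common reference in expression assays, varied widely among the controls. It had 73.9, 486, 169.5 and 0.547 FPKM in control 1 to 4, the last from 9 reads. Exercise 1 had 1 read, exercise 2 had 40 reads or 6.07 FPKM, and exercise 3 and 4 had none. Control 4 lay below exercise 2, so the groups overlapped, and limma put the log2 change at -5.05 (standard error 1.62, adjusted p of 0.0392), which held without control 4 alone among the 8 fits without 1 library. The call was lost with voom on the recovered reads (limma-voom adjusted p = 0.0958) and with quantile normalization (limma adjusted p = 0.0949). Gapdh overlaps Iffo1 on the opposite strand, which had 277 reads against 9631 of Gapdh over all libraries.

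**Figure D3:**
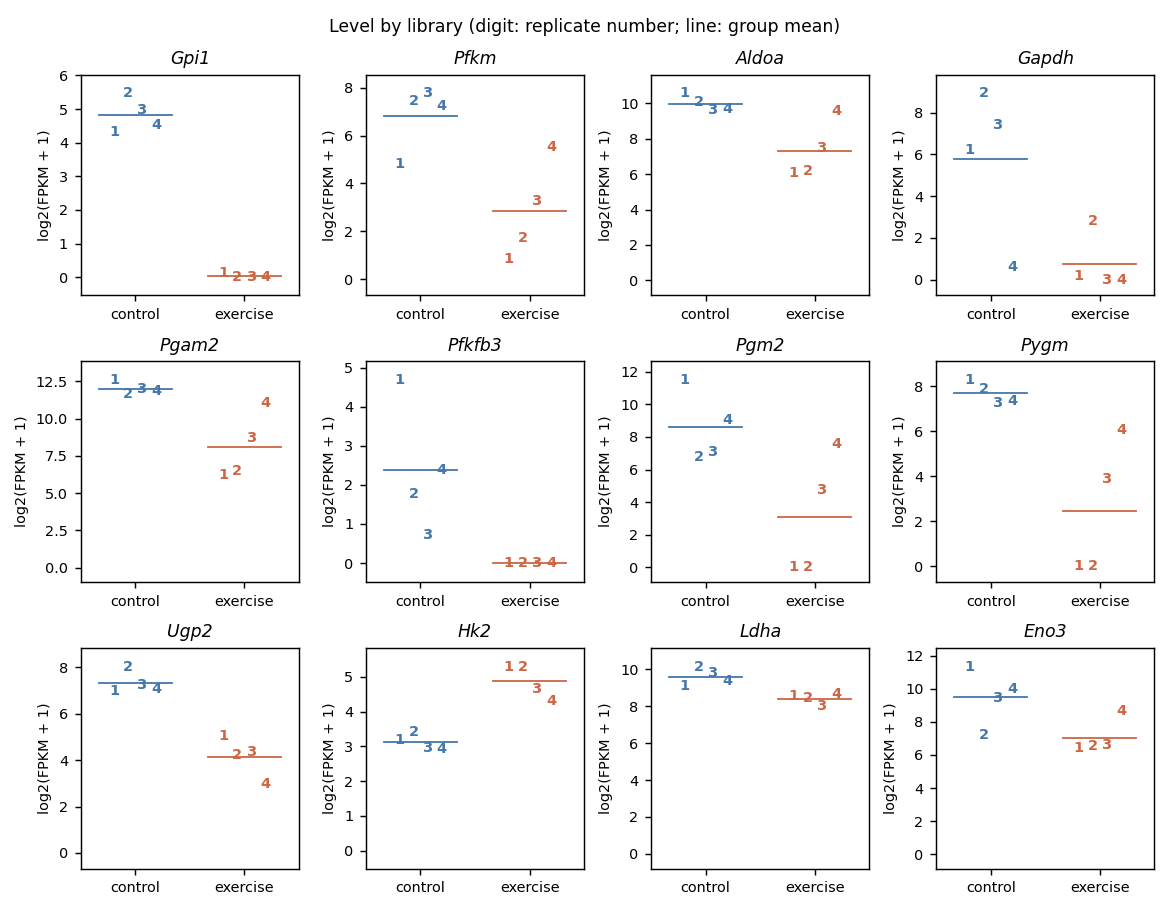
Level of 12 genes in each library as log2(FPKM + 1), with the replicate number as the plotting symbol, control in blue and exercise in orange, and a line at each group mean. The 9 called genes are lower in exercise, with exercise 4 nearest to the controls in Pfkm, Aldoa, Pgam2, Pgm2 and Pygm, while Hk2 is higher.

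The later steps yield ATP. Pgk1, phosphoglycerate kinase, had a higher mean in exercise. It had 52.6, 20.2, 266 and 176 FPKM in control 1 to 4 and 87.7, 77.4, 539 and 2581 FPKM in exercise 1 to 4. The groups overlapped, and the log2 fold change of 1.87 had a limma adjusted p of 0.232. By FPKM, Pgk1 was the highest of the 33 genes in exercise 3 and 4, Ldha in exercise 1 and 2, and Pgam2 in all 4 controls.

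Pgam2, the phosphoglycerate mutase of muscle (chromosome 11, 5801640 to 5803733), had 6088, 3139.6, 3969 and 3728 FPKM in control 1 to 4 and 74.0, 86.5, 417 and 2152 FPKM in exercise 1 to 4. No exercise library reached a control, and the means were 4231 ± 1286 and 682 ± 993 FPKM (SD, n = 4), 6.20-fold apart, or 22.0-fold without exercise 4. Limma gave a log2 fold change of -3.89 (standard error 0.99, adjusted p = 0.0190), which held in 5 of 8 fits without 1 library and was lost without control 4, exercise 1 or exercise 2. Pgam1, the form of most tissues (chromosome 19, 41911871 to 41918664), had 95 reads in control 1, 34 in control 4 and none elsewhere (log2 fold change -1.77, limma adjusted p = 0.151).

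Bpgm, which makes 2,3-bisphosphoglycerate, had 15, 0, 1 and 5 reads in control 1 to 4 and 2 reads in exercise 1 alone.

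Promoter sequence is shown for this pair and for Pygm, since Pgam2 and Pygm were called lower and Pgam1 was hardly detected. Each run is the 250 bases before the transcription start in RefSeq on GRCm38.p6, 5′ to 3′ on the strand of the gene, at chr11:5803797-5804046 (minus strand) for Pgam2, chr19:41911621-41911870 (plus strand) for Pgam1 and chr19:6384158-6384407 (plus strand) for Pygm. Capitals mark CAGCTG (an E-box read by the myogenic factors), the MEF2 motif, and ACGTG on either strand (the core read by hypoxia-inducible factors).
Pgam2: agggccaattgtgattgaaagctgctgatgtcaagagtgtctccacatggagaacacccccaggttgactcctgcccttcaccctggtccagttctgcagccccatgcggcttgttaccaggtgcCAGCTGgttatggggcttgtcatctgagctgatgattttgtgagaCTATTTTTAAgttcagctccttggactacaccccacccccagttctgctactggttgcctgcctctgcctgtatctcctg
Pgam1: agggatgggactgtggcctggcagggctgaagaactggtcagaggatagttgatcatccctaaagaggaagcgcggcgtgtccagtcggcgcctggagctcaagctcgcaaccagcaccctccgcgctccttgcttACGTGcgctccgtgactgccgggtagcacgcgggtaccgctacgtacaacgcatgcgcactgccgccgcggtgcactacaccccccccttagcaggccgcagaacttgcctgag
Pygm: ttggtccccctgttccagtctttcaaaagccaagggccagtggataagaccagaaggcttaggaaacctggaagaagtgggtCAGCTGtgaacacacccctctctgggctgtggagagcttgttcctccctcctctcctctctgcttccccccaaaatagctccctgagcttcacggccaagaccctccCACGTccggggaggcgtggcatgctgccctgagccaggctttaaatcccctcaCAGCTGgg
Pgam2 held a CAGCTG and a MEF2 match, Pygm held CAGCTG at 2 places and an ACGTG on the reverse strand, and Pgam1 held ACGTG without CAGCTG or the MEF2 motif. Searched on both strands, CAGCTG was in 7 of the 33 promoters and in 12.8% of 27025 promoters of the same length, the MEF2 motif in 1 and in 3.01%, and ACGTG, which CACGTG contains, in 12 and in 16.6%. CACGTG was in 3 (6.05% of all), GCGTG in 14 (28.2%), GGGCGG in 17 (32.9%) and TATAAA in 1 (13.0%). The promoters with CAGCTG were those of Gpi1, Pgam2 and Pygm, which were called lower, and of Gys1, Pkm, Fbp2 and Phka1, which were not called. Pfkm, Aldoa, Gapdh, Pfkfb3, Pgm2 and Ugp2, also called lower, and Eno3 had no CAGCTG in this window. A match describes letters in this window and is not a measured binding site.

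Eno3, the muscle enolase (chromosome 11, 70657202 to 70662513), had 2552, 147, 688 and 1010.1 FPKM in control 1 to 4 and 84.3, 91.9, 95.9 and 395 FPKM in exercise 1 to 4. Exercise 4 exceeded control 2, and the log2 fold change of -2.44 (standard error 0.93) had a limma adjusted p of 0.0618. Eno1, the enolase of most tissues (chromosome 4, 150236721 to 150248879), had 1 read in control 2, 2 in exercise 3 and 1 in exercise 4.

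Pkm, pyruvate kinase, had 8.37, 4.31, 21.5 and 17.4 FPKM in control 1 to 4, no read in exercise 1 and 2, 34.8 FPKM in exercise 3 and 206 FPKM in exercise 4. The exercise libraries thus lay on both sides of the controls. The log2 fold change was -0.37 (limma adjusted p = 0.862), and it turned to 0.49 with quantile normalization and to 0.70 with exercise 1 and 2 averaged. The splice forms of Pkm cannot be told apart in a table by gene.

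Ldha, the lactate dehydrogenase of fast muscle and of glycolytic cells (chromosome 7, 46841475 to 46855627), had 542, 1125, 886 and 675 FPKM in control 1 to 4 and 374, 348, 262 and 399 FPKM in exercise 1 to 4. All exercise values were below all controls, 807 ± 255 against 346 ± 59.5 FPKM (SD, n = 4), and the spread within exercise was small on the FPKM scale. The log2 fold change was -1.18 (standard error 0.51), smaller in size than the median of all genes, and the limma adjusted p was 0.0886. By share of reads the exercise libraries spread widely, with 1954, 1819, 802 and 329.7 RPM in exercise 1 to 4. The groups overlapped on that scale, with 1759 RPM in control 1. Ldhb, the heart form (chromosome 6, 142490249 to 142507957), had no read in any library.

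Glycogen breakdown begins with glycogen phosphorylase. Pygm, its muscle form and the gene of McArdle disease (chromosome 19, 6384399 to 6398459), had 308, 236, 149 and 159 FPKM in control 1 to 4, from 1870 to 2326 reads. Exercise 1 and 2 had no read, and exercise 3 and 4 had 13.5 and 64.7 FPKM. Every exercise library was below every control. In limma the log2 change was -5.20 with a standard error of 1.32 (adjusted p = 0.0188), which was lost without the same 3 libraries as for Pgam2. Pygb, the brain form (chromosome 2, 150786735 to 150831758), had no read.

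Phosphorylase kinase switches phosphorylase on. Phka1, its muscle regulatory subunit, had no read in control 1 and 0.730, 7.20 and 3.85 FPKM in control 2 to 4, against 27.3, 29.8, 20.0 and 0.554 FPKM in exercise 1 to 4. Only exercise 4, with 1 read, lay within the control range, and the log2 fold change of 2.17 had a limma adjusted p of 0.139. Phkb had 4 to 26 reads in each control and none in exercise. Phkg1, the muscle catalytic subunit, had at most 10 reads in any library and overlaps Chchd2 on the same strand, which had 772.

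Phosphoglucomutase joins glycogen to glycolysis. The gene the table calls Pgm2 (chromosome 4, 99929414 to 99987294) is named Pgm1 in GENCODE M21 and encodes the main phosphoglucomutase, and the names of the pair are exchanged in the table. It had 2873, 110.3, 134 and 526 FPKM in control 1 to 4, no read in exercise 1 and 2, and 25.6 and 189 FPKM in exercise 3 and 4. Exercise 4 lay above control 2 and 3, and control 1 stood far above the rest. The fit put the change at -5.53 on the log2 scale (standard error 1.78, limma adjusted p of 0.0396), which held in 1 of 8 fits without 1 library, that without exercise 4. The gene called Pgm1 in the table had no read.

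Ugp2 makes UDP-glucose, the substrate of glycogen synthesis (chromosome 11, 21321138 to 21371201). It had 125, 258, 150.1 and 133 FPKM in control 1 to 4 and 32.3, 17.6, 19.1 and 6.78 FPKM in exercise 1 to 4. The groups stood well apart, with means of 166 ± 61.8 and 18.9 ± 10.5 FPKM (SD, n = 4), 8.77-fold. Limma gave a log2 fold change of -3.18 (standard error 0.69, adjusted p = 0.0104), and the call held in 8 of 8 fits without 1 library. Here exercise 4, with 6 reads, was the lowest library rather than the highest.

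The genes that build the polymer did not pass the test. Gys1, muscle glycogen synthase, had no read in control 1 and 2.66, 5.14 and 2.57 FPKM in control 2 to 4, and no read in exercise 1 and 2 against 18.1 and 107 FPKM in exercise 3 and 4 (limma adjusted p = 0.521). It overlaps Ruvbl2 on the opposite strand, with 117 reads against 427 of Gys1. Gbe1, the branching enzyme, had 4.32 and 0.985 FPKM in control 1 and 4 and no read in control 2 and 3, and 11.3, 10.1, 6.07 and 0.648 FPKM in exercise 1 to 4, the last from 1 read (log2 fold change 1.81, limma adjusted p = 0.121). Gyg, glycogenin, which primes the chain, had 20.3, 0, 3.28 and 4.39 FPKM in control and 1.53, 3.74, 2.31 and 0 FPKM in exercise (limma adjusted p = 0.441).

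The exercise libraries were thus not uniform. Hk2, Phka1 and Gbe1 had their highest levels in exercise 1 and 2 and their lowest exercise level in exercise 4. Among exercise libraries on the FPKM scale, Pgk1, Pkm, Gys1 and Fbp2 were highest in exercise 4, as were Pfkm, Aldoa, Pgam2, Eno3, Pgm2 and Pygm. Levels in exercise 3 lay between those of exercise 1 and 4 in each of these genes on that scale. By share of reads Eno3 was not highest in exercise 4, with 231, 252, 154 and 171 RPM in exercise 1 to 4, and exercise 3 did not lie between exercise 1 and 4. In 14 genes the share of reads in exercise 3 was 0.740 to 1.42 times the weighted sum of exercise 1 and 4.

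**Figure D4:**
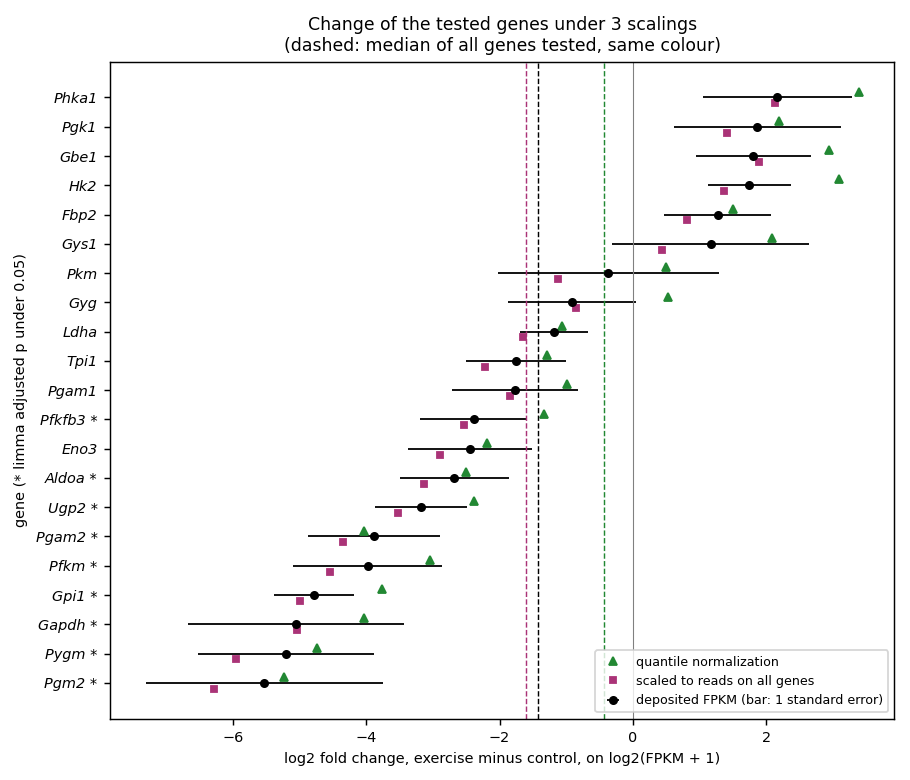
Log2 fold change (exercise minus control, on log2(FPKM + 1)) of the 21 tested genes from limma on the deposited FPKM (black, bar 1 standard error), after quantile normalization (green) and after scaling to reads on all genes (purple), with the median of all genes tested as a dashed line of the same colour. Quantile normalization puts 20 of the 21 genes to the right of their deposited value, Pgam2 being the exception (-4.03 against -3.89), and the median of all genes at -0.44, against -1.42 on the deposited scale.

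Scaling moved the balance of calls. With quantile normalization the median of all genes was -0.44, and 6 of the 21 genes were called lower (Aldoa, Gpi1, Pgam2, Pgm2, Pygm and Ugp2, against 8.66% of all genes) and 3 higher (Gbe1, Hk2 and Phka1, against 13.1%). The log2 fold change of Hk2 was then 3.09 (limma adjusted p = 0.0138), that of Gbe1 2.95 (0.0253) and that of Phka1 3.39 (0.0332). Gpi1, Aldoa, Pgam2, Pgm2, Pygm and Ugp2 were called lower on the deposited scale, by quantile normalization and by scaling to all reads.

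By subgroup, 6 of 14 tested glycolysis genes and 3 of 7 tested glycogen genes were called lower, 42.9% of each against 26.8% of all genes. The median log2 fold change was -2.08 for glycolysis, -0.91 for glycogen and -1.42 for all genes, and 3 of the 7 glycogen genes (42.9%) lay below the median of all genes against 9 of the 14 glycolysis genes (64.3%). With groups without a read set to 3 reads the medians were -1.78, -0.91 and -0.78. The difference between the subgroups was not tested.

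Muscle forms were set against their counterparts as the difference of log2(FPKM + 1) within each library. Eno3 to Eno1 averaged 9.46 ± 1.75 over controls and 6.76 ± 0.78 over exercise libraries (SD, n = 4), a difference of -2.70 (exact two-sided permutation p = 0.0571, adjusted p = 0.0762 over 4 pairs). Pgam2 to Pgam1 was 10.24 ± 1.88 and 8.11 ± 2.27, a difference of -2.12 (exact permutation p = 0.200, adjusted p = 0.200). For Ldha to Ldhb the values were 9.60 ± 0.46 and 8.42 ± 0.27, a difference of -1.18 (exact permutation p = 0.0286, adjusted p = 0.0571). For Pygm to Pygb they were 7.68 ± 0.49 and 2.47 ± 2.99, a difference of -5.20 (exact permutation p = 0.0286, adjusted p = 0.0571). A p of 0.0286 is the smallest that 4 libraries against 4 allow, and after adjustment it passes only if most of the 4 pairs reach it. None of the 4 pairs passed, also those at the smallest p, so this says little about them. Ldhb and Pygb had no read, Eno1 had 4 in all and Pgam1 129 in 2 libraries, so the differences of the Eno, Ldh and Pyg pairs are for the most part those of the muscle form itself. Those of the Pgam pair are not, since Pgam2 alone had a log2 fold change of -3.89 and Pgam1 of -1.77, and with a pseudocount of 0.1 in place of 1 the difference of this pair was -0.55. The muscle form led in every library where the enzyme had reads, also in exercise.

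Of 48 further genes of the pathway (other isozymes, regulators, transporters and pyruvate carriers), 25 had reads and 16 were tested, of which 5 were called lower, 4 of them described here, and none higher by limma. That is 31.2% lower, near the 26.8% of all genes, and 7 of the 16 had an unadjusted p under 0.05 (1 of them higher), 43.8% against 49.6% of all genes. With voom on the recovered reads the counts were also 5 and 0, but with Ppp1r3c (limma-voom adjusted p = 0.0430, named after its values were seen) in place of Pdk4 (0.0883). Quantile normalization left 1 lower, Tigar, and 1 higher, Slc16a1, a lactate carrier named after its values were seen. Tigar, a phosphatase that lowers fructose-2,6-bisphosphate, had 0.834, 478, 338 and 221 FPKM in control 1 to 4 and no read in exercise, at least 226-fold lower with exercise set to 3 reads per library, or 163-fold without control 2 and 446-fold without exercise 4 (limma adjusted p = 0.0162). Control 1, with 7 reads, was far below the other controls and below the 2.85 FPKM that 3 reads are worth in exercise 4. Pdk2, which turns pyruvate dehydrogenase off, had 15.3, 5.58, 6.88 and 6.03 FPKM in control 1 to 4 and 1 read in exercise 3 alone (log2 fold change -3.04, standard error 0.57, limma adjusted p = 0.00554), and its call held in 8 of 8 fits without 1 library. Pdk4, another such kinase, had 0, 16.8, 10.1 and 5.43 FPKM in control and no read in exercise, at least 6.78-fold lower, or 4.34-fold without control 2 (limma adjusted p = 0.0425). Mpc2, a subunit of the mitochondrial pyruvate carrier, had 134, 21.7, 18.1 and 36.4 FPKM in control 1 to 4 and 2.77, 1.79, 1.84 and 12.3 FPKM in exercise 1 to 4 (log2 fold change -3.11, standard error 0.88, limma adjusted p = 0.0281). Of 8 fits without 1 library, the calls held in 6 for Tigar, 4 for Mpc2 and 1 for Pdk4. Glucose carriers had few or no reads in most libraries. Slc2a3, a carrier of high affinity, had 192 reads in control 1 (11.6 FPKM) and 62 in control 4 (2.15 FPKM) and none in the other libraries (limma adjusted p = 0.175), and is named here after its values were seen. Slc2a1, the carrier of most cells, had 10 reads in control 3 and 3 in control 4, and Slc2a4, the insulin-responsive carrier of muscle, had 3 in control 1 and 1 in control 4, with none in exercise, so that a change of either was not detectable at this depth.

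Myofibre transcripts took a smaller share of all reads in exercise, 5.03% to 6.89% against 10.2% to 20.9% in control. Of the reads outside the mitochondrial genome they took 21.4%, 11.5%, 15.1% and 17.4% in control 1 to 4. In exercise 1 to 4 this share was 5.45%, 5.75%, 12.4% and 22.0%, so the groups overlapped on that scale and exercise 4 exceeded all controls. Of 16 markers tested singly on the FPKM scale, 4 were called lower (Mb, Myh1, Myl1 and Tpm2), 25.0% against 26.8% of all genes, and none higher. A negative log2 fold change was found in 15 of the 16 (93.8%, against 68.3% of all genes), with a median of -1.06 against -1.42 over all genes. Among the 12 that were not called it ran from -2.72 (Ckm) and -2.30 (Atp2a1) to -0.08 (Tnnt3) and 0.20 (Ttn). By share of all reads, both the markers and the glycolysis genes were lower in all 4 exercise libraries than in all controls. Reads on the 33 genes came to 13.5%, 18.2%, 14.7% and 13.4% of the reads on the 18 myofibre markers in control 1 to 4 and to 8.07%, 7.47%, 6.25% and 5.69% in exercise 1 to 4, so they were lower in exercise also relative to the markers. The part of myofibre RNA in the result was not tested.

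**Figure D5:**
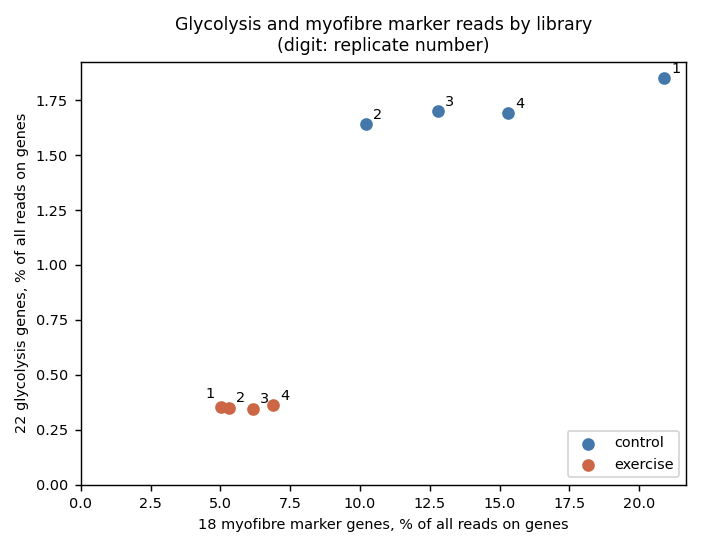
Percent of all reads on genes that fell on the 18 myofibre markers (x axis) and on the 22 glycolysis genes (y axis), 1 point per library with its replicate number, control in blue and exercise in orange. Exercise libraries lie at 5.03% to 6.89% and 0.346% to 0.360%, controls at 10.2% to 20.9% and 1.64% to 1.85%.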

How the data were processed

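The authors deposited 1 table of FPKM values for 52636 genes in 8 libraries. Per the methods and the submitters' processing notes, paired-end reads from a single-cell RNA kit were aligned with Bowtie 0.12.9 to mm10, FPKM came from Cufflinks 2.1.1 and reads were counted with HTSeq, and the annotation release is not given in the sources used here. All values times gene length were whole multiples of a step per library (100.0% within a tolerance of 0.001), which gave the reads. The step follows a size factor, not the read total. Rows sharing a symbol were summed.

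Genes whose mean reached 1 FPKM entered limma 3.58.1 as log2(FPKM + 1) (lmFit and eBayes with a trend, R 4.3.3), with Benjamini-Hochberg adjustment. This understates changes of low genes. The methods name a count test, which was not run, and voom on the recovered reads stands as the alternative that uses counts. Isoform ratios had exact two-sided permutation tests. A count of 0 was taken to allow 3 reads, which covers counting error alone, amplified reads being no independent molecules. Tables were handled in Python 3.11.15 with pandas 2.3.3. Of the 34 rows of the 33 genes, 31 had the same start and end in GENCODE M21 (GRCm38), and all 33 had a RefSeq promoter.

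Replicate numbers did not pair the libraries (correlations of same-numbered deviations -0.02 to 0.04). The genes, lists and tests were chosen with earlier results of these data known. The genes described in full were those with an adjusted p under 0.05 and the isoform pairs, with Slc2a1 and Slc2a4 among the further genes, of which 1 is not reported here. Alternatives were a pseudocount of 0.1, no filter, quantile normalization, scaling to reads outside the mitochondrial genome or (chosen after seeing the data) on all genes, a replicate block, voom on recovered reads, no trend, the highest row of a symbol, averaging exercise 1 and 2, also leaving out control 4 and exercise 3, and leaving out each library.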

Additional observations from a re-analysis of the deposited data

Results flagged for a closer look

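In 8 of 58 groups of 4 libraries, a library lay far from the other 3 relative to the range of the group. Chance gives about 1 in 20 such groups where libraries are independent. That is in doubt here, and the summed levels share their genes with the single ones, so no excess over chance is read from the count. On the log2(FPKM + 1) scale, Gpi1 was 0.13 in exercise 1, from 1 read, against 0.00 in the other exercise libraries. Gapdh was 2.82 in exercise 2, from 40 reads, against at most 0.19 in the others. Eno3 was 8.63 in exercise 4, against 6.41 to 6.60. Phka1 was 0.64 in exercise 4, from 1 read, against 4.39 to 4.95.

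The summed FPKM of the glycolysis genes was 11405 in control 1, with the remaining controls at 6554 to 7254, and 6879 in exercise 4 against 771 to 1626 in the other exercise libraries. For the glycogen genes it was 3332 in control 1 against 449 to 830.3, and 371 in exercise 4 against 61.2 to 106. As shares of all reads, exercise 4 was at 0.360% for glycolysis against 0.346% to 0.353%, and at 0.0329% for glycogen against 0.0401% to 0.0528%.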

How the results depend on the processing

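With all 8 libraries, 9 of the 33 genes were called lower and none higher. The number lower was 4 of 28 tested with no filter (6.71% of all genes in that fit), 2 after averaging exercise 1 and 2 (9.51%), and 0 after further omitting control 4 and exercise 3, a fit of fewer samples, and it ranged from 2 to 10 when 1 library was left out. The number higher was 3 with quantile normalization (13.1% of all genes), 1 with no trend (8.29%) and 1 with voom (10.4%), and 0 to 3 without 1 library (2 without control 1, against 9.91% of all genes, and 3 without exercise 4, against 13.1%). Of the further pathway genes, 5 were called lower, and 3 were with no filter, 1 with quantile normalization (8.66% of all genes), 2 after averaging exercise 1 and 2, and 0 after further omitting control 4 and exercise 3, and 1 to 6 without 1 library (1 without control 4 or exercise 3, 2 without exercise 1 or exercise 2, fits that called 8.14% to 9.58% of all genes lower). None was called higher, but 1 was with quantile normalization, and 0 to 1 without 1 library. The log2 fold change of Pkm turned to 0.49 with quantile normalization, to 0.70 after averaging exercise 1 and 2, and to 0.47 after further omitting control 4 and exercise 3, and ranged from -1.86 to 0.70 without 1 library. That of Gys1 ranged from -0.16 to 2.09, the lowest without exercise 4, and that of Gyg turned to 0.53 with quantile normalization. The causes were not tested. With a replicate block, 7 of the 33 genes were called lower, without Aldoa and Pfkfb3 (18.2% of all genes), and 0 higher (6.24%), but the libraries share only a number. The isoform differences stayed negative in all 24 alternatives and 32 comparisons without 1 library, but that of Pgam2 to Pgam1 moved from -2.12 to -0.55 with a pseudocount of 0.1, and ranged from -3.11 to -1.49 without 1 library. Their p-values say nothing of stability where the design cannot pass the threshold, as with the replicate block (smallest exact permutation p 0.125) and also without control 4 and exercise 3. Quantile normalization was not run for them. The shallow exercise libraries limit what can be said of genes with few control reads.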

Other observations

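Most of the genes had in control 4 the share of reads that the weighted sum of control 1 and 3 gives. For 20 genes the ratio was 0.730 to 1.19, with a median of 1.01. Gapdh was the exception among the 21 genes compared, with 3.23 RPM (reads over all reads on genes, scaled to a common total) where the sum gives 733, a ratio of 0.00440. The weights were the shares that genes of control 1 alone and of control 3 alone kept in control 4.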
